A study of Mus musculus with 18 samples.

Results

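Dendritic cells (DCs) that carry both CD11b and CD103 on their surface, called double-positive here, were compared between the intestinal lymph nodes and the small intestinal lamina propria. The comparison rests on the 6 double-positive libraries of 18 in the series, 3 from each tissue. It covered 17074 of the 54232 genes in the count table, those that passed a filter on low counts. All 6 libraries came from C57BL/6J mice with the genotype CD11a KO, a knockout of the integrin chain encoded by Itgal. No wild-type library was analysed here, so the values describe tissues and not the genotype. The other 12 libraries are the CD11b+ and the CD103+ single-positive DCs of the same tissues and genotype. The labels give the sorting gate of lamina propria DCs as live single CD45+ CD64- MHCIIhigh CD11c+ cells and the library kit as Smart-seq v4, which amplifies full-length transcripts and does not mark strand. Neither the age nor the treatment of these mice, nor whether each library was a separate animal or a pool, is given. P-values therefore measure the spread between these samples, which may be technical.

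Double-positive DCs are a conventional DC subset that is characteristic of the small intestine, depends on IRF4 and Notch2, and samples antigen in the lamina propria. DCs leave peripheral tissue through afferent lymph by following CCL21, the ligand of the chemokine receptor CCR7, and mature on the way. They lower antigen uptake and raise costimulation before they meet naive T cells in the node. The lymph node also holds resident DCs that arrive from blood, and a sort on surface proteins does not separate cells by where they came from.

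The total count was between 23574292 and 31805879 per double-positive library. Itgal (ENSMUSG00000030830, chromosome 7 from 127296260 to 127335138, plus strand of GRCm38), the targeted gene, was still counted at 18.4, 17.6 and 20.3 CPM in the lamina propria and 15.4, 9.56 and 13.1 CPM in the node. Counts per gene do not show whether the transcript was intact. The genes of the subset's defining surface proteins were counted in every library and were lower in the node. Itgam, which encodes CD11b, was at 65.9, 63.2 and 76.4 CPM in the lamina propria and 4.88, 5.76 and 4.84 CPM in the node. Itgae, which encodes CD103, was at 826, 714 and 896 CPM in the lamina propria and 48.1, 49.1 and 41.1 CPM in the node. In the lymph node groups that were sorted as single-positive, Itgam was at 20.8 CPM in CD11b+ and 0.438 CPM in CD103+ DCs, and Itgae at 5.97 and 35.4 CPM. The double-positive libraries lay between them for Itgam and above both for Itgae. Xist, transcribed in females, was at most 0.214 CPM in the lamina propria libraries and at 41.6, 35.1 and 26.1 CPM in the lymph node libraries. Ddx3y of the Y chromosome was at 69.4, 74.4 and 73.8 CPM and at 0.0391, 0 and 52.2 CPM. The lamina propria libraries thus read as male, lymph node replicates 1 and 2 as female and lymph node replicate 3 as a mixture. Tissue and sex cannot be told apart in replicates 1 and 2. Replicate 3 does not separate them either, since Xist was at 26.1 CPM in it and no lymph node library read as male alone. Summed markers of other cells also moved with tissue. The sum of 14 T cell genes went from 17.0 to 36.5 CPM in the lamina propria to 1074.5 to 1293 CPM in the node, with none at 0 in either. The sum of 10 innate lymphoid and NK cell genes went from 41.0 to 59.8 CPM (Eomes at 0) to 436 to 477 CPM. That of 10 B cell genes went from 15.6 to 16.2 CPM (Pax5 at 0) to 63.0 to 76.7 CPM, and that of 8 plasmacytoid DC genes from 138 to 172 CPM to 384 to 431 CPM. The sums fell from 2794 to 3730 CPM down to 1299.6 to 1441 CPM for 12 macrophage genes. They fell from 452 to 637 CPM down to 69.0 to 70.7 CPM for 12 epithelial genes, from 104 to 115 CPM down to 20.4 to 26.4 CPM for 12 stromal and endothelial genes, and from 258 to 335 CPM down to 85.7 to 131 CPM for 10 mast cell and granulocyte genes, while 8 plasma cell genes summed to between 380.0 and 393 CPM and between 317 and 617 CPM. Single genes made up much of most sums. Without Epcam, itself a surface protein of intestinal DCs, the other 11 epithelial markers went from 30.3 to 113 CPM down to 11.6 to 13.05 CPM. Without Pecam1 the other 11 stromal and endothelial markers overlapped between the tissues, at 4.997 to 8.75 CPM and 5.63 to 11.8 CPM. Without Kit and Siglecf the other 8 mast cell and granulocyte markers were at 0.136 to 1.60 CPM and 2.95 to 12.9 CPM, the opposite direction to the sum. Without Lyz2 the other 11 macrophage markers went from 638 to 684 CPM down to 283 to 342 CPM. Without Bst2, Tcf4 and Spib the other 5 plasmacytoid DC markers were at 26.0 to 34.6 CPM and 43.0 to 58.05 CPM. Without Tcf7 and Cd6 the other 12 T cell markers still went from 6.53 to 20.7 CPM to 362 to 606 CPM, and without Il7r and Klrk1 the other 8 innate lymphoid markers from 1.04 to 5.29 CPM to 68.2 to 88.3 CPM. The part of other cells in the results was not tested. The 10 markers of conventional DCs summed to between 86399 and 93446 CPM and between 55629 and 57753 CPM. Most of this was H2-Ab1 and Cd74 of MHC class II presentation. Without them the other 8 were at 16231 to 17020 CPM and 12747 to 13083 CPM.

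A gene was called at an adjusted p under 0.01 and a fold change over 2 in edgeR's quasi-likelihood test. Levels are in CPM, counts relative to library size after TMM scaling, and 3 values for a tissue are its replicates 1 to 3. A value with ± is the mean and SD of 3 libraries. Between the tissues 5485 genes were called, 32.1% of those tested: 3170 (18.6%) were higher and 2315 (13.6%) lower in the lymph node. The counts of gene lists below are to be read beside these 2 shares. Without lymph node replicate 3 the number was 5117, of which 4938 were called in the same direction with all libraries, and leaving out genes on X and Y gave 5333. With libraries scaled by total counts in place of TMM, the median log2 fold change of all genes moved from 0.07 to -0.10 and the share of calls that were higher from 57.8% to 49.7% of 5561. The 3 libraries of one tissue did not overlap with those of the other for 11430 genes (66.9%), so absence of overlap alone says little in this comparison. Among called genes with more than 10 counts in each tissue, the median log2 fold change was 2.20 for 2370 rises and -1.71 for 2113 falls, and 195 rises and 55 falls exceeded 5 on that scale. Among the 178 genes with at least 1000 CPM in either tissue, 84 were higher and 34 lower in the node. In bulk RNA, fewer cells of a type and less RNA per cell cannot be told apart, and this holds for every gene below.

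**Figure D1:**
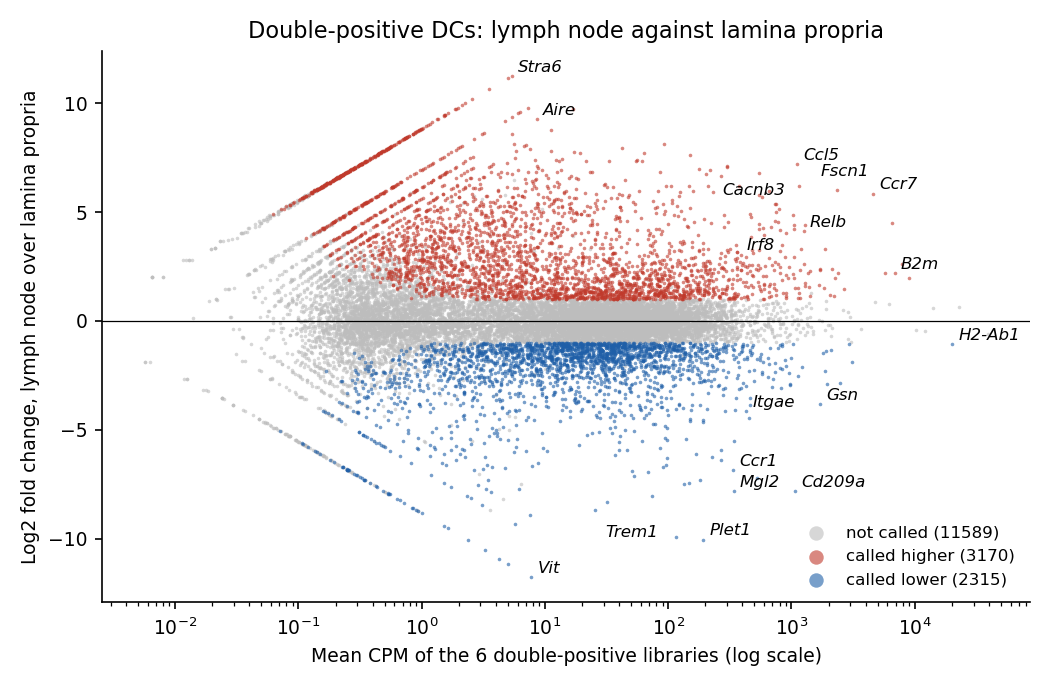
Each point is 1 of the 17074 genes tested, with the mean of the 6 double-positive libraries on the x axis (CPM, log scale) and the log2 fold change of lymph node over lamina propria on the y axis; coloured points are the 3170 genes called higher and the 2315 called lower. The 18 labelled genes are described in the text, and the diagonal streaks at the left are genes with few or no counts in one tissue, whose fitted folds are not precise.

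The genes that mark migratory, mature DCs had the highest share of rises among the 27 functional lists. Of 23 tested, 20 rose and 1 fell, with a median log2 fold change of 3.55 where the median of all genes tested was 0.07. Ccr7, the receptor that leads DCs to the node, was at 129, 147 and 194 CPM in the lamina propria and 7902, 9865 and 9307 CPM in the node, a 57.6-fold rise (log2 fold change 5.85, SE 0.33, adjusted p = 2.4e-10). Fscn1, which bundles actin in the dendrites of mature DCs, was at 65.5, 73.6 and 75.8 CPM in the lamina propria and 5324, 3963 and 4495 CPM in the node (log2 fold change 6.00, SE 0.24, adjusted p = 4.5e-12). Cacnb3, a calcium channel subunit typical of mature DCs, was at 30.6, 29.1 and 34.7 CPM in the lamina propria and 2441, 2073 and 2356 CPM in the node (log2 fold change 6.19, SE 0.29, adjusted p = 2.4e-11). For these 3 genes every lymph node library was more than 10 times above every lamina propria library. Costimulatory and coinhibitory surface molecules did not move as a block. Cd40, the receptor for the T cell ligand CD40L, rose by 2.95 on the log2 scale, Cd83 by 1.52, Icosl by 2.74, Cd200 by 4.69, Cd274 (PD-L1) by 1.43 and Pdcd1lg2 (PD-L2) by 2.30. Cd80, a ligand of CD28, was at 36.2, 31.8 and 41.7 CPM in the lamina propria and 16.2, 18.2 and 17.7 CPM in the node, a fall (log2 fold change -1.07, SE 0.18, adjusted p = 7.8e-05) whose call was lost without lamina propria replicate 3 (-0.97). Cd86, the other CD28 ligand, was at 176 ± 23.5 CPM and 118 ± 17.9 CPM and was not called. Other maturation genes with large rises were Nudt17 (log2 fold change 5.95), Tmem176a (5.02), Socs2 (4.89), a feedback inhibitor of cytokine signalling, and Marcksl1 (4.86), an actin-binding substrate of protein kinase C. Il4i1 and Lamp3 were under the filter.

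**Figure D2:**
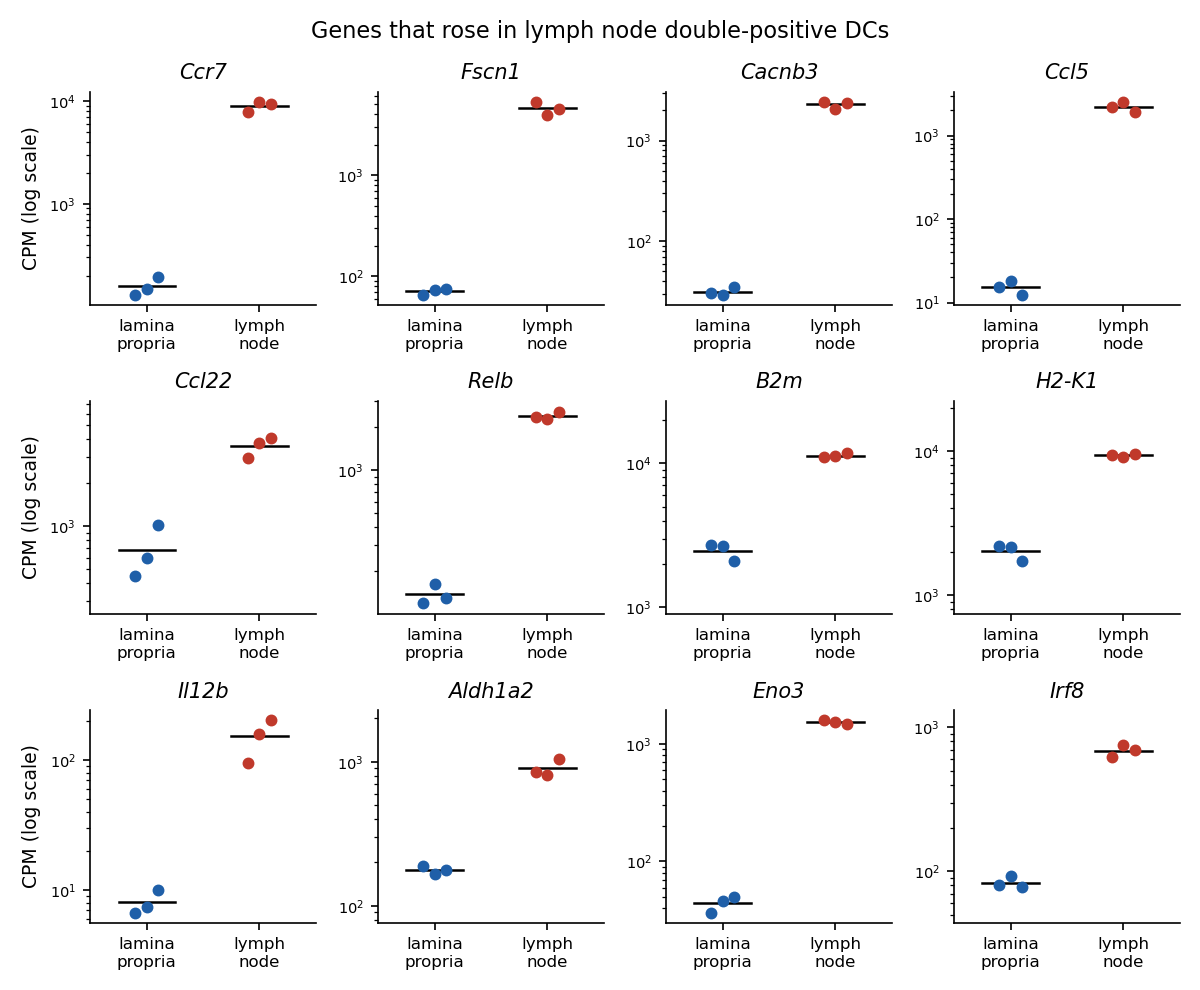
CPM (log scale) of 12 genes that rose in the lymph node, with 1 point per library (3 lamina propria, 3 lymph node) and a bar at the group mean. The groups do not overlap for any of these genes, and the ratio of means is largest for Ccl5 and smallest for B2m.

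Among chemokine receptors 11 of 20 rose and 2 fell. The falls were Ccr1, a receptor for inflammatory CC chemokines, and Ccrl2, which binds chemerin. Ccr1 was at 725, 602 and 663 CPM in the lamina propria and 6.602, 5.10 and 5.37 CPM in the node, a 116-fold fall (log2 fold change -6.86, SE 0.30, adjusted p = 1.2e-11), the opposite course to Ccr7. Ccr6, the receptor for CCL20, was at 2.06 ± 0.338 CPM and 44.2 ± 1.74 CPM (log2 fold change 4.42) and Cxcr6, the receptor for CXCL16, at 1.21 ± 0.703 CPM and 45.4 ± 1.201 CPM (5.23). Cxcr3 was at 2.29 ± 0.534 CPM and 24.7 ± 3.78 CPM (3.43) and Cxcr5 at 1.33 ± 0.548 CPM and 13.9 ± 3.04 CPM (3.37). These are also receptors of lymphocytes, and the T cell and innate lymphoid marker sums given above rose beside them. Ccr9, the gut-homing receptor for CCL25, was at 25.3 ± 4.83 CPM and 28.3 ± 4.13 CPM and was not called.

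The chemokines themselves moved both ways, with 9 of 24 higher (37.5%) and 4 lower (16.7%), beside 18.6% and 13.6% of all genes tested. Their median log2 fold change was 0.02, which turned to -0.15 with libraries scaled by total counts. Ccl5, which attracts T cells and monocytes, was at 15.5, 18.1 and 12.3 CPM in the lamina propria and 2221, 2544 and 1907 CPM in the node, the largest rise among chemokines with counts in every library (log2 fold change 7.18, SE 0.33, adjusted p = 2.0e-11). Ccl22, which attracts CCR4+ T cells, was at 447, 599 and 1013 CPM in the lamina propria and 2952, 3768 and 4061 CPM in the node (log2 fold change 2.39, SE 0.27, adjusted p = 9.1e-07). Cxcl16 was at 228, 204 and 232 CPM in the lamina propria and 2156, 2183 and 2129 CPM in the node (log2 fold change 3.28, SE 0.18, adjusted p = 1.2e-10). Ccl17, the other CCR4 ligand, was at 62.2, 93.6 and 84.3 CPM and 75.5, 81.5 and 76.0 CPM, with overlapping groups, and was not called. Cxcl2, a neutrophil chemoattractant, fell by 3.25 on the log2 scale and Ccl4, which attracts monocytes and T cells, by 2.00. Ccl19, which shares CCR7 with CCL21, had no count in the lamina propria libraries and was at 0.655 CPM in the node.

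Of the 21 NF-kB subunits and feedback genes, 16 rose and 2 fell (median 1.68). NF-kB has a classical arm, in which RelA pairs with the p50 product of Nfkb1, and an alternative arm, in which the kinase NIK (Map3k14) acts on p100 of Nfkb2 to free RelB. Relb was at 119.5, 162 and 129 CPM in the lamina propria and 2329, 2267 and 2532 CPM in the node, without overlap and 17.3-fold higher (log2 fold change 4.12, SE 0.14, adjusted p = 1.0e-12). Nfkb2 was at 121, 143 and 122 CPM in the lamina propria and 610.0, 589 and 732 CPM in the node (log2 fold change 2.32, SE 0.11, adjusted p = 3.2e-11), and Map3k14 rose by 2.20 on the log2 scale. In the classical arm Rela rose by 1.68 and Rel by 1.10. Nfkb1 was at 231, 254 and 304 CPM in the lamina propria and 59.1, 60.6 and 67.0 CPM in the node and fell (log2 fold change -2.08, SE 0.13, adjusted p = 6.7e-10), as did Nfkbiz, an atypical member of the inhibitor family, by 1.73. The inhibitor genes Nfkbia and Nfkbib rose by 1.26 and 1.61, while Nfkbie, at 209 ± 23.8 CPM and 341 ± 28.9 CPM (0.70), was not called. Bcl3, an atypical member of the inhibitor family, rose by 2.12. Of the adaptors and ubiquitin ligases of TNF receptor signalling 5 rose, with log2 fold changes of 3.50 for Traf1, 2.62 for Traf2, 2.29 for Traf3, 3.47 for Birc2 and 2.53 for Birc3. Traf5, of the same family, was at 68.6 ± 5.76 CPM and 109 ± 9.16 CPM (0.67) and was not called. Tnfaip3, the deubiquitinase A20, rose by 1.01. The calls of Rel, Tnip1 (1.00) and Tnfaip3 lay at the fold limit. Rel lost its call without lamina propria replicate 1 (0.99) or lymph node replicate 3 (0.99), Tnip1 without lamina propria replicate 1 (0.97) or lymph node replicate 1 (0.96) or 3 (1.00), and Tnfaip3 without lamina propria replicate 2 (1.00) or 3 (0.91) or lymph node replicate 3 (0.86). With the 6 double-positive libraries alone Tnip1 and Tnfaip3 were both at 0.98 and not called.

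The upstream sequences of these genes were searched because NF-kB proteins bind a known motif. The RefSeq promoter table (GRCm38.p6) held a window for 18 of the 21 genes. The kB consensus, on either strand and with overlapping matches counted, lay in the 250 bases before the start of 8 of them (44.4%), against 1014 of 27025 windows in the table (3.75%). The 8 were Rel, Nfkb2, Nfkbia, Nfkbie, Tnfaip3, Tnip1, Tnip3 and Traf3, of which 6 were called higher, a share no larger than in the whole list (16 of 21). A match is a description of the letters and not a bound site. The list was chosen by function and holds known NF-kB targets, so its larger share of matches says nothing about the tissues. Printed below, 5′ to 3′ on the gene's strand with the kB match in capitals, are 3 genes of the list that rose and hold a match in a window outside the annotated gene: Traf3 (chr12:111166120-111166369, plus strand), an adaptor that restrains NIK, Nfkbia (chr12:55492648-55492897, minus strand), the main inhibitor of classical NF-kB, and Tnip1 (chr11:54962941-54963190, minus strand), a partner of A20, in which 3 matches overlap.
Traf3: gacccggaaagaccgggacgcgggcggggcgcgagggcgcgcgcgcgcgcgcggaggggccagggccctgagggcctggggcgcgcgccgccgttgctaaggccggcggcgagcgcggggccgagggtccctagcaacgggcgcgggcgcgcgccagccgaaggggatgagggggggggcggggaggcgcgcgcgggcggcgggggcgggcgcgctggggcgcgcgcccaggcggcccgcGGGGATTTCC
Nfkbia: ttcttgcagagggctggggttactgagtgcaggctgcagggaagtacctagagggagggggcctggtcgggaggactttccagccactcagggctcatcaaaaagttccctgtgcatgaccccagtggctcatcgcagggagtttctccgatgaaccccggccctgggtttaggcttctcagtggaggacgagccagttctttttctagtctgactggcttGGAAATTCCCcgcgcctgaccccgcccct
Tnip1: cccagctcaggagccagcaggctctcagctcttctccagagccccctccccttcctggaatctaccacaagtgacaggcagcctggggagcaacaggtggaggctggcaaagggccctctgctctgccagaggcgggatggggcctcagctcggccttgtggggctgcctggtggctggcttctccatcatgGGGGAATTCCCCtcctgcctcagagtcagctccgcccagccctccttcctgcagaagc

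Antigen presentation on MHC class I and class II mostly moved in opposite directions. Of 20 class I genes 13 rose and none fell in edgeR or DESeq2, 2 being lower at an unadjusted p under 0.05 (median 1.18). B2m, the light chain of class I, was at 2684, 2657 and 2082 CPM in the lamina propria and 10999, 11156 and 11688 CPM in the node (log2 fold change 2.19, SE 0.12, adjusted p = 1.4e-10). H2-K1, a classical heavy chain, was at 2208, 2153 and 1729 CPM in the lamina propria and 9405, 9151 and 9538 CPM in the node (log2 fold change 2.21, SE 0.12, adjusted p = 8.7e-11). Its reads can be shared with other class I genes such as H2-D1, which rose by 1.97. Tap1, a subunit of the peptide transporter of the endoplasmic reticulum, was at 303, 317 and 258 CPM in the lamina propria and 1313, 1263 and 1394 CPM in the node (log2 fold change 2.18, SE 0.09, adjusted p = 1.1e-11). Tapbpl, a peptide editor, rose by 2.59, the proteasome activator subunit Psme2 by 2.28, the immunoproteasome subunits Psmb8 and Psmb9 by 1.19 and 1.16, and Nlrc5, the transactivator of class I genes, by 3.09. Calr, Canx and Pdia3, the general chaperones of the list, were not called.

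Of 15 class II genes 8 fell and 2 rose (median -1.06). H2-Ab1, the beta chain of I-A, was at 27879, 28065 and 25435 CPM in the lamina propria and 13102, 13007 and 12794 CPM in the node, just past the fold limit (log2 fold change -1.06, SE 0.10, adjusted p = 8.7e-08). H2-Aa (-0.44), H2-Eb1 (-0.42) and the invariant chain Cd74 (-0.61) lay below 0 and were not called. Ciita, the transactivator of class II genes, was at 664, 689 and 743 CPM in the lamina propria and 249, 190.4 and 278 CPM in the node (log2 fold change -1.55, SE 0.17, adjusted p = 7.8e-07). March1, the ubiquitin ligase that removes class II from the surface of immature DCs, was at 119, 120.0 and 126 CPM in the lamina propria and 13.2, 15.4 and 17.7 CPM in the node (log2 fold change -2.98, SE 0.20, adjusted p = 1.5e-09). All 5 peptide loading genes of the list fell: H2-DMa by 2.21, H2-DMb1 by 2.43, H2-DMb2 by 1.09, H2-Oa by 1.48 and H2-Ob by 3.13. Reads of H2-DMb1 and H2-DMb2 can be shared. H2-Eb2, a second E beta gene, was at 5.61 ± 1.56 CPM and 184 ± 20.7 CPM and rose by 5.03. Of 19 lysosomal proteases and their inhibitors 8 rose (42.1%) and 3 fell (15.8%), beside 18.6% and 13.6% of all genes tested. Among them were Lgmn (asparagine endopeptidase) with a rise of 1.499, Ctsz with a rise of 1.16, Psap (prosaposin) with a fall of 1.90 and Ctsl with a fall of 1.60. Ctss, which trims the invariant chain, was at 1328 ± 69.7 CPM and 1516 ± 31.4 CPM and was not called.

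Uptake receptors fell more often than they rose, with 16 of 33 lower and 6 higher (median -1.40). Cd209a, a DC-SIGN family lectin, was at 2359.5, 2129.8 and 1903 CPM in the lamina propria and 8.59, 8.03 and 11.9 CPM in the node, a 225-fold fall (log2 fold change -7.81, SE 0.38, adjusted p = 3.8e-11). Mgl2, the galactose-type lectin CD301b, was at 748, 696 and 584 CPM in the lamina propria and 3.36, 1.47 and 4.51 CPM in the node (log2 fold change -7.80, SE 0.44, adjusted p = 2.2e-10). Clec4a2, an inhibitory lectin, was at 179, 173 and 213 CPM in the lamina propria and 2.54, 1.12 and 2.19 CPM in the node (log2 fold change -6.61, SE 0.40, adjusted p = 5.4e-10). The lamina propria libraries lay above every lymph node library for all 3 lectins. Receptors for fungal glycans fell as well, Clec7a (Dectin-1) by 2.81 and Clec4n (Dectin-2) by 4.74, as did the Fc receptors Fcgr3 by 4.04 and Fcgr2b by 2.15. Reads of the Cd209 genes and of the Clec4 cluster can be shared among near-identical copies. The rises of the list included Ly75 (DEC-205, 1.59), Cd36 (1.65), Clec9a (1.71), Marco (8.07, from 4 counts in the lamina propria) and Cd207, which had no count in the lamina propria and was at 1.78 CPM in the node.

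**Figure D3:**
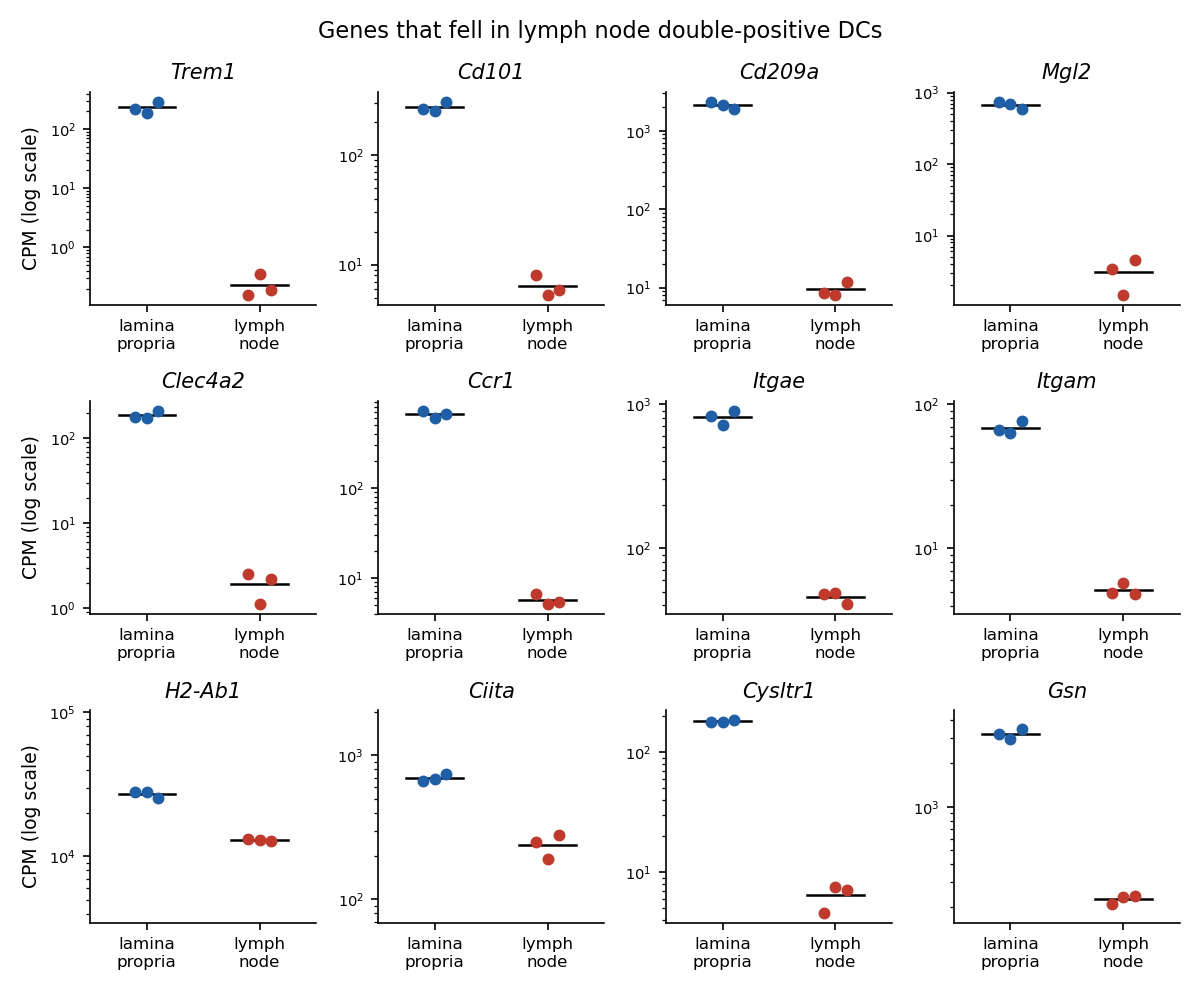
CPM (log scale) of 12 genes that fell in the lymph node, with 1 point per library (3 lamina propria, 3 lymph node) and a bar at the group mean. The groups do not overlap for any of them, and the ratio of means spans from Trem1, with less than 1 CPM in the node, to H2-Ab1, which stayed the most abundant of the 12 in the node.

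The surface markers by which intestinal DC subsets are told apart mostly fell, 14 of 23, with 6 higher (median -1.63). Trem1, an activating receptor, was at 220.0, 188 and 291 CPM in the lamina propria and 0.156, 0.349 and 0.190 CPM in the node (log2 fold change -9.91, SE 0.58, adjusted p = 3.6e-10). Cd101, which in the gut is typical of double-positive DCs, was at 262, 253 and 307 CPM in the lamina propria and 8.09, 5.27 and 5.89 CPM in the node (log2 fold change -5.42, SE 0.25, adjusted p = 2.1e-11). Adhesion molecules fell too: Cdh1 (E-cadherin) by 6.27, Epcam by 2.98, Itgb7, the beta chain that pairs with CD103, by 2.29, and Itgax (CD11c) by 1.39. Epithelial cells also carry Cdh1 and Epcam, and the other 11 epithelial markers fell beside them in their summed level, as given above. Sirpa, a marker of IRF4-dependent DCs, fell by 1.44. The 6 that rose were Cd4 (2.79), Cd207, and Xcr1 (1.55), Clec9a, Cadm1 (2.71) and Cd8a (4.21), of which the last 4 mark the IRF8-dependent, cross-presenting DC lineage. They do not stand for all genes found in that lineage. Cd24a fell by 2.75 and Treml4 by 1.63, and Btla (0.63) and the transcription factor gene Batf3 (0.61) were not called. Cd8a and Cd4 are T cell genes too, and the 14 T cell markers summed to at least 1074.5 CPM in the node.

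Of 35 transcription factors of DCs 14 rose (40.0%) and 6 fell (17.1%), beside 18.6% and 13.6% of all genes tested. Irf8, required for the cross-presenting lineage, was at 80.8, 92.5 and 77.4 CPM in the lamina propria and 618, 749.5 and 701 CPM in the node (log2 fold change 3.04, SE 0.10, adjusted p = 6.0e-13). Irf4, required for double-positive DCs, was at 69.2 ± 6.96 CPM and 41.8 ± 7.59 CPM and was not called. Id2, an inhibitor of E proteins, was at 554, 561 and 594 CPM in the lamina propria and 2614, 3050.3 and 2868 CPM in the node (log2 fold change 2.32, SE 0.20, adjusted p = 2.9e-08). Spib, an ETS factor that plasmacytoid DCs use, was at 4.95 ± 2.33 CPM and 153 ± 33.4 CPM (log2 fold change 4.95, SE 0.31, adjusted p = 6.7e-10). Stat3 rose by 1.62, Etv3 by 1.70, Klf2 by 2.46 and Satb1 by 2.81. T cells also express Klf2 and Satb1, and the T cell marker sum given above rose beside them. The falls were led by Myc, a driver of growth, at 121, 139.8 and 118 CPM in the lamina propria and 16.2, 16.8 and 12.8 CPM in the node (log2 fold change -3.04, SE 0.22, adjusted p = 3.5e-09). Runx1, Runx3, Rara and Bcl11a fell by 2.26, 1.57, 1.73 and 1.71. Zbtb46, which marks conventional DCs, was at 255 ± 7.44 CPM and 208 ± 19.3 CPM and was not called.

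Receptors for growth factors rose in 6 of 14 cases (42.9%) and fell in 2 (14.3%), beside 18.6% and 13.6% of all genes tested. The falls were thus near the share over all genes. Flt3, the receptor that maintains conventional DCs, rose by 1.01 and lost its call without lamina propria replicate 1 (0.99) or lymph node replicate 3 (0.91) and with the 6 double-positive libraries alone (0.98). Csf2rb, the beta chain shared by the GM-CSF, IL-3 and IL-5 receptors, was at 428 ± 29.8 CPM and 1680.1 ± 212 CPM (log2 fold change 1.97, SE 0.14, adjusted p = 3.7e-09). Il21r rose by 4.31 and Il7r by 4.36, the latter also a marker of the innate lymphoid list, of whose sum in the node it made up 273 ± 23.6 CPM. Csf1r, which macrophages depend on, fell by 1.69 on the log2 scale, and is itself a member of the macrophage list.

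Cytokine genes were higher in the node in 19 of 30 cases and lower in 5 (median 2.48). Il12b, the p40 chain shared by IL-12 and IL-23, was at 6.67, 7.46 and 10.0 CPM in the lamina propria and 94.6, 157 and 204 CPM in the node (log2 fold change 4.23, SE 0.34, adjusted p = 1.4e-08). Il15, a survival factor for memory T cells and NK cells, was at 11.6, 12.6 and 9.64 CPM in the lamina propria and 144, 155 and 132 CPM in the node (log2 fold change 3.67, SE 0.15, adjusted p = 7.2e-12). The groups did not overlap for either gene. Il27 rose by 2.48 and Il6 by 2.15, to 13.4 and 22.4 CPM. Il1b was at 1702, 1362 and 1302 CPM in the lamina propria and 289, 309 and 456 CPM in the node and fell (log2 fold change -2.05, SE 0.33, adjusted p = 4.7e-05), as did Il1a by 4.41, Il16 by 2.12 and Tnfsf13b (BAFF) by 4.13. Tnf was at 26.3 ± 3.78 CPM and 34.2 ± 6.61 CPM and was not called. Many of the cytokine rises are of low transcripts: Il10 was at 0.230 ± 0.230 CPM and 5.29 ± 1.34 CPM and Lif at 0.0723 ± 0.0746 CPM and 3.95 ± 0.424 CPM. Csf2 had no count in the lamina propria and was at 0.526 CPM in the node. Ltb and Lta, which T cells also make, rose by 2.49 and 4.40 beside the T cell marker sum.

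Intestinal DCs are known for making retinoic acid and for activating TGF-beta, both of which favour gut homing and regulatory T cells. Aldh1a2, the enzyme that completes retinoic acid synthesis, was at 189.5, 167 and 178 CPM in the lamina propria and 847, 813 and 1044 CPM in the node (log2 fold change 2.34, SE 0.20, adjusted p = 3.0e-08). Stra6, which takes up retinol, had no count in the lamina propria libraries and was at 9.38, 10.5 and 12.4 CPM in the lymph node libraries, at least 303-fold higher against a floor of 3 counts over the 3 libraries. Dhrs3, a retinal reductase, rose by 1.95, while the receptor genes Rara and Rarb fell by 1.73 and 1.51 and Rarg rose by 3.95, to 9.68 CPM. The other falls were of enzyme genes: Rdh10 by 1.16, Dhrs9 by 2.46 and Aldh1a1, from 0.691 CPM to no count in the node. Over the list 5 of 16 genes rose and 5 fell. Of 25 TGF-beta genes 9 rose and 4 fell. Itgb8, whose product activates latent TGF-beta together with the alpha V chain, was at 0.596, 0.542 and 0.964 CPM in the lamina propria and 21.5, 27.4 and 32.1 CPM in the node (log2 fold change 5.26, SE 0.37, adjusted p = 2.9e-09). Itgav, the alpha V chain, was not called. Tgfb1 was at 256, 244 and 274 CPM in the lamina propria and 51.8, 50.4 and 55.6 CPM in the node and fell (log2 fold change -2.30, SE 0.14, adjusted p = 3.5e-10). Smad7 and Pmepa1, inhibitors that TGF-beta itself induces, fell by 2.04 and 1.59.

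Of 14 genes of tryptophan breakdown and the aryl hydrocarbon receptor 3 rose and 3 fell (21.4% each), beside 18.6% and 13.6% of all genes tested. The enzymes among them were 2 of the rises and 2 of the falls. Ido1, which opens the indole ring, was at 3.95, 3.05 and 2.89 CPM in the lamina propria and 68.3, 82.0 and 85.5 CPM in the node (log2 fold change 4.57, SE 0.38, adjusted p = 2.2e-08). Its relative Ido2 rose by 6.21. Kmo, a later enzyme of the kynurenine pathway, was at 403, 390.4 and 369 CPM in the lamina propria and 19.8, 24.1 and 25.8 CPM in the node and fell (log2 fold change -4.06, SE 0.17, adjusted p = 7.6e-12). Kyat3, a kynurenine aminotransferase, fell by 2.77. Of the receptor's target genes, Ahrr, which represses it, rose by 1.03 and Tiparp fell by 2.34. Ahr, the receptor itself, was at 88.7 ± 9.58 CPM and 46.5 ± 7.57 CPM and was not called. Without lamina propria replicate 2 or lymph node replicate 3 Ahrr lost its call (0.95 and 0.955) and Ahr was called (-1.01 and -1.08).

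Interferon-stimulated genes rose in 16 of 35 cases and fell in 3 (median 0.65). Mx1, an antiviral GTPase, was at 8.87, 7.79 and 5.53 CPM in the lamina propria and 479, 362 and 521 CPM in the node (log2 fold change 5.94, SE 0.23, adjusted p = 3.5e-12). Gbp2, Gbp5, Usp18, Rsad2 and Oasl1 rose by 2.37, 3.25, 2.37, 3.09 and 2.85. Ifit2, Ifit3b and Isg20 fell by 1.09, 1.16 and 1.04, close to the limits. Without lymph node replicate 1 none of the 3 was called (-0.89, -1.09 and -0.87), Ifit2 also lost its call without lamina propria replicate 1 (-0.97) and Isg20 without lymph node replicate 3 (-0.99), and Ifit3b without any lamina propria replicate or lymph node replicate 3 (-1.01 to -1.28). Reads of Ifit3b can be shared with Ifit3. Toll-like receptors and their adaptors rose in 8 cases (5 with total counts) and fell in 6 of 27. These shares, 29.6% and 22.2%, stood beside 18.6% and 13.6% of all genes tested. Ly96 (MD-2), the partner of TLR4, rose by 3.37 and Irf7 by 2.25, while Cd14, the coreceptor for lipopolysaccharide, fell by 3.69 and Myd88, the common adaptor, by 1.47.

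The genes for lipid mediators fell in 11 of 20 cases and rose in 3. Cysltr1, a receptor for cysteinyl leukotrienes, was at 179, 177 and 186 CPM in the lamina propria and 4.57, 7.54 and 7.17 CPM in the node (log2 fold change -4.81, SE 0.15, adjusted p = 6.3e-13). Alox5ap, which presents arachidonic acid to 5-lipoxygenase, was at 127, 128 and 121 CPM in the lamina propria and 8.05, 12.1 and 10.0 CPM in the node (log2 fold change -3.64, SE 0.20, adjusted p = 1.3e-10). Lta4h, which makes leukotriene B4, fell by 2.20. Prostaglandin E2 receptors split, with Ptger3 lower by 3.88 and Ptger4, which DCs use for migration, higher by 1.54.

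**Figure D4:**
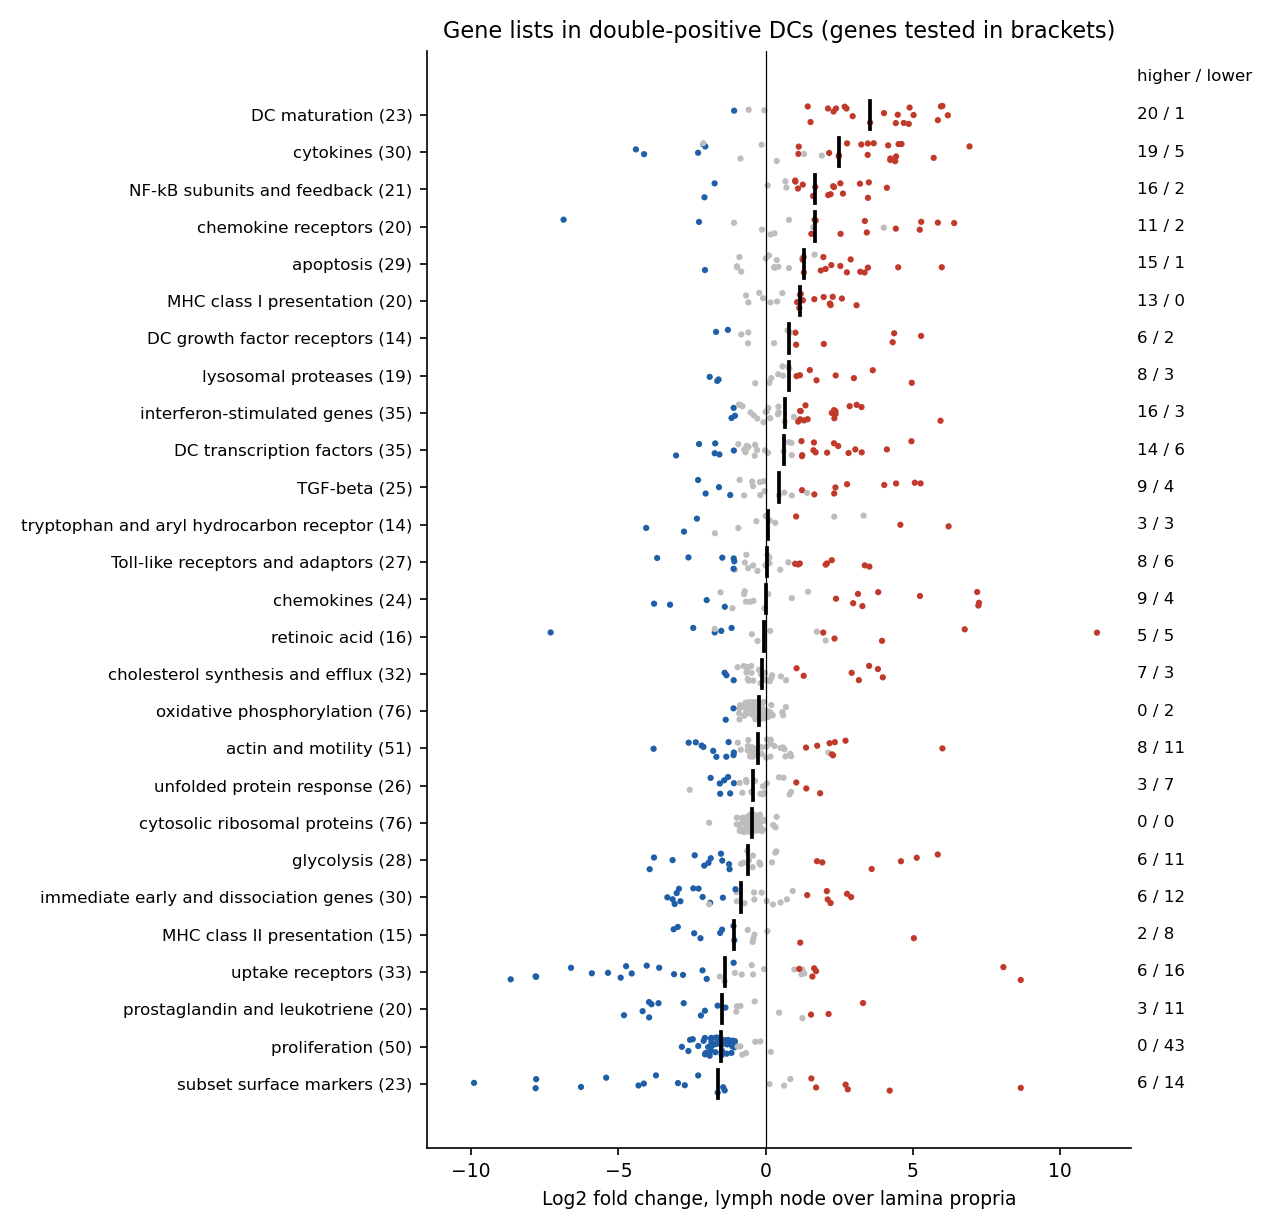
Log2 fold changes of lymph node over lamina propria for the tested members of 27 gene lists, with 1 point per gene, a bar at the list's median and the number of genes called higher and lower at the right; genes without counts in one tissue are drawn at their fitted fold. The maturation and cytokine lists lie furthest above 0 and the proliferation, lipid mediator and surface marker lists furthest below, while the oxidative phosphorylation and ribosomal protein lists are narrow.

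Cell cycle genes fell as a group: 43 of 50 were lower in the node and none was higher in edgeR or DESeq2, nor in edgeR at an unadjusted p under 0.05 (median -1.53). Mki67, present in cycling cells, was at 46.6, 54.8 and 63.4 CPM in the lamina propria and 16.2, 18.1 and 18.2 CPM in the node (log2 fold change -1.65, SE 0.14, adjusted p = 2.0e-08). Top2a, which untangles replicated DNA, was at 119.5, 102 and 126 CPM in the lamina propria and 27.5, 29.2 and 26.3 CPM in the node (log2 fold change -2.07, SE 0.14, adjusted p = 2.1e-09). The replicative helicase genes Mcm2, Mcm3, Mcm4, Mcm5, Mcm6 and Mcm7 fell by between 1.14 and 1.83, and E2f1, E2f2, E2f7 and E2f8 by between 1.85 and 2.85. The promoter table held a window for 37 of the 50 genes, and the E2F motifs TTTCCCGC or TTTGGCGC, on either strand, lay upstream of 6 of them (16.2%) against 366 of 27025 windows (1.35%). Of the 6, which were Mcm5, Mcm6, Mcm7, Cdk2, Cdc6 and E2f7, 5 were called lower, beside 43 of 50 in the whole list. This list too was chosen by function, so its larger share of matches says nothing about the tissues. E2f7 (chr10:110745189-110745438, plus strand), a repressor of the family, and Mcm5 (chr8:75109259-75109508, plus strand) are shown with the match in capitals because they fell and their windows lie outside the annotated gene.
E2f7: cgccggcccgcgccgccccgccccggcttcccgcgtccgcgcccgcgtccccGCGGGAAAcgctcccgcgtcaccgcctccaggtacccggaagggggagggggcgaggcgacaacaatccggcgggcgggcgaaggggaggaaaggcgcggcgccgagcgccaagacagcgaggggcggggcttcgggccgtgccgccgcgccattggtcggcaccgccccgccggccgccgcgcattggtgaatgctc
Mcm5: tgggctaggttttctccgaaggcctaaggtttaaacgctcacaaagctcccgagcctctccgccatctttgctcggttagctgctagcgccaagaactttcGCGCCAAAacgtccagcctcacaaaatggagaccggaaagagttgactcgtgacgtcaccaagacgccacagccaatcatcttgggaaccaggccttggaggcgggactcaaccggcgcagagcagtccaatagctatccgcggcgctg

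Of 28 glycolysis genes 6 rose (21.4%) and 11 fell (39.3%), beside 18.6% and 13.6% of all genes tested. Pfkfb3, which makes the activator of phosphofructokinase, was at 55.2, 65.0 and 56.0 CPM in the lamina propria and 1371, 1391 and 1492 CPM in the node (log2 fold change 4.59, SE 0.17, adjusted p = 1.9e-12). Of the enolase genes Eno2 and Eno3 rose and Eno1 fell. Eno2 was at 1.36 ± 0.104 CPM and 78.5 ± 5.69 CPM (log2 fold change 5.84). Eno3 was at 36.4, 45.7 and 50.04 CPM in the lamina propria and 1609, 1524 and 1492 CPM in the node (log2 fold change 5.13, SE 0.16, adjusted p = 6.0e-13). Eno1 was at 939, 936 and 916 CPM in the lamina propria and 262, 266 and 237 CPM in the node (log2 fold change -1.87, SE 0.10, adjusted p = 1.3e-10). Glucose transporters split as well: Slc2a6 rose by 1.92, and Slc2a1 and Slc2a3 fell by 1.94 and 3.79. Hk2 and Ldha, the first and last enzymes of aerobic glycolysis, fell by 3.16 and 2.41. Of 76 oxidative phosphorylation genes none rose in edgeR or DESeq2 (6 at an unadjusted p under 0.05) and 2 fell (Ndufa8, a complex I subunit, and Cycs, cytochrome c), with a median of -0.24. With total counts 6 of them were lower and without lymph node replicate 2 it was 5. Of 76 cytosolic ribosomal protein genes edgeR and DESeq2 called none (2 higher and 62 lower at an unadjusted p under 0.05), with a median of -0.47. With total counts 7 were lower, 4 without lymph node replicate 2 and 1 without lamina propria replicate 1 or 3. Reads of ribosomal protein genes can be shared with pseudogenes. Cholesterol genes rose in 7 (21.9%) and fell in 3 (9.4%) of 32 cases, beside 18.6% and 13.6% of all genes tested. The largest rises of the list were of the efflux transporters Abcg1 (log2 fold change 3.98) and Abca1 (3.81) and of Mylip (3.51), which degrades the LDL receptor. Ch25h (3.16, to 0.868 CPM), which hydroxylates cholesterol, and Nr1h3 (LXR-alpha, 2.92) came next. Ch25h lost its call without lamina propria replicate 1 (2.62) or 3 (3.01) or lymph node replicate 2 (2.75). Apoe, a carrier of exported cholesterol, was at 207 ± 11.4 CPM and 184 ± 21.1 CPM and was not called. In the unfolded protein response 7 of 26 genes (26.9%) fell, among them the chaperones Hspa5 by 1.08 and Hsp90b1 by 1.56, and 3 (11.5%) rose.

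Genes that tissue digestion is known to induce fell in 12 and rose in 6 of 30 cases (median -0.85), and how each tissue was dissociated is not given in the labels. Egr1, an immediate early factor, was at 1776, 1466 and 1202 CPM in the lamina propria and 159, 187 and 175 CPM in the node (log2 fold change -3.09, SE 0.21, adjusted p = 2.1e-09). Nr4a1 was at 1380.0, 1152 and 1152 CPM in the lamina propria and 79.5, 137 and 237 CPM in the node (log2 fold change -3.02, SE 0.38, adjusted p = 3.5e-06). Fos was at 2891, 2922 and 2090.0 CPM in the lamina propria and 800.2, 1155 and 930.4 CPM in the node (log2 fold change -1.45, SE 0.17, adjusted p = 1.7e-06). These 3 genes were lower in every lymph node library. The heat shock genes Hspa1a and Hspa1b, near-identical copies, rose by 2.76 and 2.90. Jun was at 1204 ± 149 CPM and 606 ± 58.9 CPM and was not called, though it was called without lamina propria replicate 3 (-1.09) or lymph node replicate 3 (-1.08) and with the 6 double-positive libraries alone (-1.02).

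Apoptosis genes rose in 15 of 29 cases and fell in 1 (5 with total counts, 3 without lymph node replicate 1, and 2 without lymph node replicate 3 or lamina propria replicate 1), with a median of 1.29. The rises were of both pro- and antiapoptotic members. Fas, the death receptor, was at 3.06, 2.44 and 2.18 CPM in the lamina propria and 150.4, 176 and 158 CPM in the node (log2 fold change 5.98, SE 0.22, adjusted p = 2.4e-12). The BH3-only genes Bbc3 and Bcl2l11 rose by 3.36 and 2.23. On the antiapoptotic side Bcl2l1 (BCL-XL) rose by 2.04 and Cflar (c-FLIP) by 2.89. Tnfrsf1a, the TNF receptor with a death domain, fell by 2.06 while Tnfrsf1b, without one, rose by 3.21. Actin and motility genes rose in 8 (15.7%) and fell in 11 (21.6%) of 51 cases, beside 18.6% and 13.6% of all genes tested. Beside Fscn1, the rises held Swap70 (2.71) and Myo1g (2.35). Gsn (gelsolin), which severs filaments, was at 3193, 2946 and 3484 CPM in the lamina propria and 211, 237 and 239.5 CPM in the node and fell (log2 fold change -3.81, SE 0.16, adjusted p = 1.0e-11).

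Ranked by fitted fold among called, non-overlapping genes with at least 10 CPM in the higher tissue, and leaving out predicted genes, receptor segments and markers of other cell types, the 15 largest rises were Stra6, Thbs4, Grin2c, Oprd1, Map6d1, Cdhr1, Npr2, Aire, Lef1, Prg3, Crispld2, Marco, Atf7ip2, Ankrd35 and Mmp7. Ncr1, left out as an NK cell marker, had a larger log2 fold change (7.88, to 15.0 CPM) than Mmp7 (7.82). Thbs4, a thrombospondin, had no count in the lamina propria and was at 7.93, 8.83 and 13.4 CPM in the node, at least 283-fold higher against the same floor. Aire, which drives tissue antigens in the thymus and in rare lymph node cells, was at 18.01, 17.1 and 16.6 CPM in the node against 2 counts in all 3 lamina propria libraries, a ratio of 728 with an exact 95% counting interval from 201 to 6016. Oprd1, the delta opioid receptor, was at 36.7, 28.3 and 35.7 CPM against 3 counts, a ratio of 934 (319 to 4531). Crispld2, a secreted protein, was at 0.745, 0.847 and 0.393 CPM in the lamina propria and 195, 161 and 197 CPM in the node (log2 fold change 8.11, SE 0.35, adjusted p = 1.1e-11). Ankrd35 was at 0.447, 0.373 and 0.214 CPM in the lamina propria and 88.6, 85.1 and 80.6 CPM in the node (log2 fold change 7.93, SE 0.25, adjusted p = 6.0e-13). Lef1, a Wnt pathway factor of T cells, was at 0.112, 0 and 0.0357 CPM and 30.4, 23.04 and 13.3 CPM, beside the T cell marker sum, whose largest member Tcf7 was at 4.44 ± 1.00 CPM and 592 ± 94.7 CPM.

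By the same rule the 15 largest falls were Vit, Plet1, Trem1, Hbb-bs, Angpt4, Cd209c, Kcne3, Cd209a, Mgl2, Pilrb2, Pilrb1, Siglece, Pilra, Gsg1 and Tmem273. Siglecf, left out as a granulocyte marker, fell by 8.05, from 147 CPM to 0.597 CPM, more than Cd209a. Vit, an extracellular matrix protein, was at 15.0, 12.7 and 18.6 CPM and had no count in the node, at least 388-fold lower. Plet1, a surface protein of epithelial progenitors and intestinal DCs, was at 369, 310.2 and 474 CPM in the lamina propria and 0.391, 0.244 and 0.475 CPM in the node (log2 fold change -10.04, SE 0.62, adjusted p = 5.9e-10). Pilra, an inhibitory receptor, was at 1098, 952 and 1105 CPM in the lamina propria and 6.21, 7.02 and 7.93 CPM in the node (log2 fold change -7.22, SE 0.37, adjusted p = 6.4e-11). The activating partners Pilrb1 and Pilrb2, whose reads can be shared, fell by 7.42 and 7.47. Siglece, an inhibitory sialic acid receptor, fell by 7.29. Hbb-bs, a haemoglobin chain of red cells, was at 15.1, 7.35 and 12.0 CPM against 1 count in the node, a ratio of 855 (153 to 33805).

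The tissue difference of double-positive DCs was set against that of the other subsets by testing the difference between the log2 fold changes in the same fit. It differed from that of CD11b+ DCs for 1987 genes (11.6%) and from that of CD103+ DCs for 1429 genes (8.37%). The difference from CD11b+ DCs was above 0 for 48.9% of the 1930 called genes outside the X and Y chromosomes. With total counts it was above 0 for 25.3% of 2355 called genes on all chromosomes. The absolute change was larger in double-positive DCs for 1840 of the 1987 genes and for 551 of the 1429. Of the 5485 genes called between tissues in double-positive DCs, 1777 (32.4%) differed from CD11b+ DCs and 819 (14.9%) from CD103+ DCs, and the other 210 and 610 genes were not called between tissues in double-positive DCs. Among the 1777 and 819 genes the sign in the other subset was opposite for 329 and 271.

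Against CD11b+ DCs the 5 smallest p among these genes belonged to Epsti1, Cd244a, Cyp4f16, Cd82 and Suox. Epsti1, an interferon-induced gene, was at 32.7 ± 4.70 CPM and 905 ± 29.5 CPM in double-positive DCs and at 75.7 ± 1.18 CPM in the lamina propria and 233 ± 31.8 CPM in the lymph node of CD11b+ DCs (difference 3.17, SE 0.16, adjusted p = 4.5e-09). Cyp4f16, a cytochrome P450, fell in double-positive DCs from 139.7 ± 3.14 CPM to 30.9 ± 3.04 CPM and was at 152 ± 21.98 CPM in the lamina propria and 569 ± 106 CPM in the lymph node of CD11b+ DCs (difference -4.08, SE 0.20, adjusted p = 4.5e-09). Cd82, a tetraspanin, likewise fell by 1.32 in double-positive DCs and was at 220.1 ± 23.1 CPM in the lamina propria and 498 ± 32.4 CPM in the lymph node of CD11b+ DCs (difference -2.50, SE 0.13, adjusted p = 4.5e-09). The differences were -3.47 for Cd244a, an immune receptor, and 2.43 for Suox, sulfite oxidase. Aldh1a2 was at 101 ± 4.68 CPM in the lamina propria and 106 ± 34.9 CPM in the lymph node of CD11b+ DCs (difference 2.28, SE 0.27, adjusted p = 1.0e-05). Ido1 was at 1.29 ± 0.858 CPM in the lamina propria and 4.46 ± 1.81 CPM in the lymph node of CD11b+ DCs (difference 2.81, SE 0.51, adjusted p = 5.4e-04).

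Against CD103+ DCs the genes with the smallest p were Irf8, Rab7b, Xcr1, Lgmn and Gpr141b. Irf8 rose in double-positive DCs, from 83.6 ± 7.95 CPM to 689 ± 66.7 CPM, and was at 4649.8 ± 280.5 CPM in the lamina propria and 1615 ± 54.0 CPM in the lymph node of CD103+ DCs (difference 4.57, SE 0.13, adjusted p = 2.0e-12). Xcr1, which rose from 25.7 ± 1.32 CPM to 75.5 ± 19.4 CPM in double-positive DCs, was at 1399.8 ± 9.45 CPM in the lamina propria and 97.6 ± 4.39 CPM in the lymph node of CD103+ DCs (difference 5.39, SE 0.21, adjusted p = 4.7e-11). Cadm1, which also rose in double-positive DCs, was at 520.0 ± 15.3 CPM in the lamina propria and 103 ± 4.54 CPM in the lymph node of CD103+ DCs (difference 5.05, SE 0.30, adjusted p = 6.9e-09). Clec9a was at 258 ± 40.9 CPM in the lamina propria and 40.1 ± 6.99 CPM in the lymph node of CD103+ DCs (difference 4.40, SE 0.32, adjusted p = 7.2e-08). Cd8a was at 196 ± 27.6 CPM in the lamina propria and 139.9 ± 27.0 CPM in the lymph node of CD103+ DCs (difference 4.70, SE 0.35, adjusted p = 9.6e-08). In the lamina propria the means of these 5 genes were higher in CD103+ than in double-positive DCs, by 47.01-fold to 60.5-fold, and in the node 1.29-fold to 2.34-fold. The 5 were picked with earlier results known, and Irf8 and Xcr1 have some of the smallest p here. They do not stand for all genes of the IRF8-dependent lineage. Irf8 was higher in the node in CD11b+ DCs as well, at 151 ± 6.29 CPM in the lamina propria and 405 ± 21.3 CPM in the lymph node (difference 1.62, SE 0.13, adjusted p = 1.8e-07). Xcr1 was at 13.4 ± 2.08 CPM in the lamina propria and 46.2 ± 2.41 CPM in the lymph node of CD11b+ DCs and Cadm1 at 6.23 ± 2.36 CPM in the lamina propria and 24.6 ± 6.49 CPM in the lymph node. The differences from CD11b+ DCs were -0.23 (SE 0.21) for Xcr1 and 0.74 (SE 0.31) for Cadm1, neither of them called. Irf4 was at 5.52 ± 0.459 CPM in the lamina propria and 26.6 ± 4.75 CPM in the lymph node of CD103+ DCs and at 69.2 ± 6.96 CPM and 41.8 ± 7.59 CPM in double-positive DCs (difference -2.998, SE 0.23, adjusted p = 1.2e-07). Rab7b, a late endosomal GTPase, and Gpr141b, an orphan receptor, had differences of 6.32 and 4.46, and Lgmn one of -3.28. Among the genes that fell in double-positive DCs, Cd209a (-4.72 and -5.86) and Cd101 (-3.63 and -7.08) had differences below 0 against CD11b+ and against CD103+ DCs, and Trem1 had one of -3.95 against CD11b+ DCs. For Ccr7, neither difference was called.

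**Figure D5:**
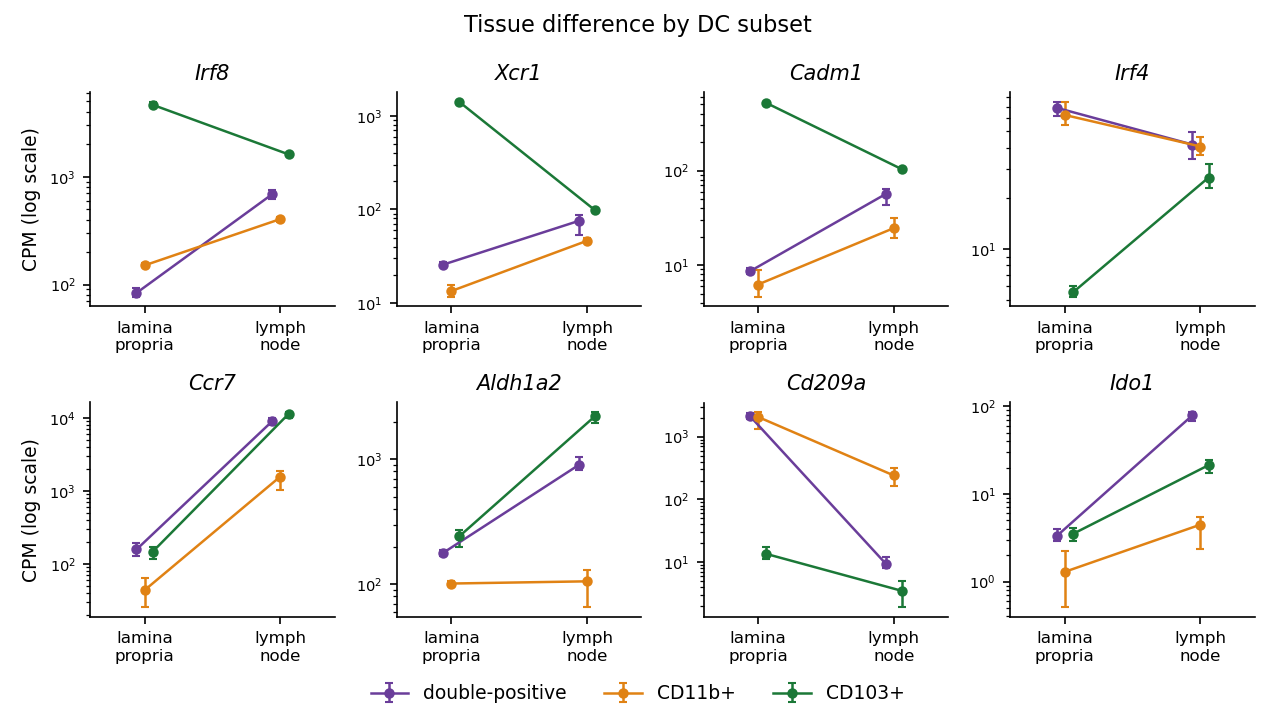
Mean CPM (log scale, bars show the range of 3 libraries) of 8 genes in lamina propria and lymph node for double-positive, CD11b+ and CD103+ DCs, joined by a line per subset. The lines of Irf8, Xcr1 and Cadm1 run upward in double-positive and CD11b+ DCs and downward in CD103+ DCs, those of Ccr7 run upward in all 3 subsets, and that of Cd209a is steepest in double-positive DCs.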

How the data were processed

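RNA-seq gene counts of 18 sorted DC libraries were deposited by the authors as raw whole-number counts per gene; the submitters' processing notes name GRCm38, FastQC 0.11.7 and STAR 2.6, and the counter, annotation and strand setting are not given in the sources used here. All 18 libraries entered 1 edgeR 4.0.16 quasi-likelihood fit (limma 3.58.1, R 4.3.3) with a mean for each of 6 groups, TMM scaling and the filterByExpr filter, and p-values were adjusted by Benjamini-Hochberg over 17074 genes. SEs were derived from the F statistic. Gene symbols and positions came from GENCODE M21, which held 54165 of 54232 gene IDs. Windows of 250 bases upstream came from RefSeq (GRCm38.p6) and were searched with Python 3.11.15 for the kB consensus and E2F motifs. The tissue comparison, the gene lists and the genes named were chosen with earlier results of these data known. Named were the genes of the sort and sex-linked genes, the 15 largest rises and falls among called, non-overlapping genes with at least 10 CPM (leaving out predicted genes, receptor segments and markers of other cells), the members of each list with the smallest p, the highest CPM or a role explained, and the 5 genes with the smallest p in each difference between subsets. Printed windows were limited, after they were seen, to those outside an annotated gene. Folds against a group without counts use a floor of 3 counts over its 3 libraries, and with such genes at their bound no list's median moved at 2 decimals. Intervals and floors cover counting error only. Replicates of a group differed by more than counting noise (chi-square per gene 14.9 to 32.5) and each was counted as 1 library; this does not show that they came from separate animals. In simulated counts of the tissue comparison over 17074 genes, 100 genes were changed by 1.5 on the log2 scale and 100 by 3.0. They lay above a CPM floor, moved up and down in equal numbers, and no other gene differed. The edgeR test called 89% and 100% of them with 0 false calls, and DESeq2 97% and 100% with 2. Far more genes differ in the data, and unevenly, so the simulation does not give the rate of false calls there. Alternatives were other scalings and filters, DESeq2 1.42.0, thinning, fewer libraries, a replicate block and genes without the sex chromosomes.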

Additional observations from a re-analysis of the deposited data

Results flagged for a closer look

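Each of the following genes was singled out because its tissue difference in double-positive DCs differed from that in another DC subset, by the test of the difference itself (log2 fold change of lymph node over lamina propria in double-positive DCs minus that in the other subset, called at an adjusted p under 0.01 and a difference over 1 in edgeR's quasi-likelihood test). Against CD11b+ DCs the difference was above 0 for Epsti1 (3.17), Suox (2.43), Aldh1a2 (2.28), Irf8 (1.62) and Ido1 (2.81), and below 0 for Cd244a (-3.47), Cyp4f16 (-4.08), Cd82 (-2.50), Cd209a (-4.72), Trem1 (-3.95) and Cd101 (-3.63). Against CD103+ DCs it was above 0 for Irf8 (4.57), Rab7b (6.32), Xcr1 (5.39), Gpr141b (4.46), Cadm1 (5.05), Clec9a (4.40) and Cd8a (4.70), and below 0 for Lgmn (-3.28), Irf4 (-2.998), Cd209a (-5.86) and Cd101 (-7.08). Single libraries were not tested as outliers, since each group holds 3.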

How the results depend on the processing

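The number of called genes stayed within 1.5 times its value in all 81 alternatives for the tissue comparison and for the differences from the other subsets, with 1 call reversed in sign. It was that of Igkv4-70, an immunoglobulin segment counted almost wholly in lamina propria replicate 2 (0, 8.98 and 0.0357 CPM in the 3 lamina propria libraries), whose log2 fold change went from -6.12 to 0.92 without that library (range over left-out libraries -9.42 to 0.92). Against 5485 between tissues, it was 5480 with DESeq2 size factors, 5561 with total counts, 5544 without the filter, 4257 with at least 100 counts in 3 libraries (fewer genes tested), 5388 with libraries thinned to the smallest total count, 5750 in DESeq2, 6321 at an adjusted p under 0.05 and 5206 with the 6 double-positive libraries alone. Leaving out each library in turn gave 5071 to 5199 calls between tissues, 1738 to 1887 for the difference from CD11b+ DCs and 1263 to 1335 for that from CD103+ DCs. With a replicate block these 3 numbers were 5450, 1986 and 1444, and with the block in the 6 libraries alone 4911 between tissues. Deviations of same-numbered libraries from their group means correlated at -0.0099, 0.0025 and 0.018 across genes. No pairing by replicate number was seen across genes, but such correlations cannot exclude one that touches few genes. Of the other named genes, those whose log2 fold change turned sign were not called: Ccr9 and Tnip3 with total counts (-0.00733 and -0.10) and Ccl17 without lamina propria replicate 2 (0.0862, range over left-out libraries -0.19 to 0.09). With total counts Psmb9 (0.99), Ctsz (0.99), Bst2 (0.997) and Ahrr (0.86) lost their calls, and so did Rel, Flt3, Tnip1 and Tnfaip3 (0.92, 0.84, 0.83 and 0.83), while Jun (-1.16), Ahr (-1.11) and Ifit3 (-1.08) were called. Flt3, Tnip1 and Tnfaip3 also lost their calls, and Jun gained one, without the filter (0.99, 0.98, 0.99 and -1.01), with the 6 libraries alone (0.98, 0.98, 0.98 and -1.02) and with the block in those 6 (0.98, 0.98, 0.98 and -1.01). With thinned libraries Tnip1 (0.99) and Tnfaip3 (0.997) were not called, nor was Tnfaip3 with the replicate block (0.995). The TGF-beta list's median went from 0.45 to -0.09 without lymph node replicate 3. Of 4548 values of named genes under alternatives 4482 kept their direction and side of the limits. Of 1887 list values 1831 counted as unchanged, which meant a count within 1.5 times its value or a median that moved little. A median near 0 could turn sign and still count as unchanged. With 3 libraries a group and totals of at least 23574292 counts, the spread between libraries rather than counting sets the error of abundant genes, while genes far under 1 CPM rest on few counts.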

Other observations

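Some of the most abundant genes that differed between the tissues belong to no gene list used above, and those given here were picked after their values were seen. Among the rises, Apol7c, an apolipoprotein L gene of DCs, was at 1804, 2175 and 2636 CPM in the lamina propria and 13188, 12919.7 and 14459.6 CPM in the node (log2 fold change 2.62, SE 0.21, adjusted p = 1.2e-08). Sqstm1, the autophagy adaptor p62, was at 354 ± 26.8 CPM in the lamina propria and 2169 ± 83.8 CPM in the node and rose by 2.62 on the log2 scale, and the lysosomal membrane gene Lamp1 rose by 2.21. Cd63, a tetraspanin of late endosomes and exosomes, was at 19.6, 23.9 and 21.2 CPM in the lamina propria and 1110.0, 1241 and 1030.1 CPM in the node (log2 fold change 5.71, SE 0.45, adjusted p = 1.4e-08), and Fabp5, a fatty acid binding protein, was at 19.2 ± 6.35 CPM and 1070.4 ± 105 CPM (log2 fold change 5.80, SE 0.29, adjusted p = 5.3e-11). Serpinb9, an inhibitor of granzyme B, rose by 2.58, and Icam1, a ligand of the integrin LFA-1 that needs the CD11a chain, by 2.50.

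Among the falls, Itgb2, the beta chain that pairs with both CD11a and CD11b, was at 1285, 1150.5 and 1248 CPM in the lamina propria and 190.2, 208 and 186 CPM in the node (log2 fold change -2.66, SE 0.16, adjusted p = 3.7e-10). Mdh2, the mitochondrial malate dehydrogenase, was at 3229, 3440.2 and 3561 CPM in the lamina propria and 476, 452 and 434 CPM in the node (log2 fold change -2.91, SE 0.11, adjusted p = 2.5e-12), and Gm2a, a lysosomal activator of ganglioside breakdown, at 4375 ± 56.2 CPM and 607 ± 79.1 CPM, a fall of 2.85 on the log2 scale. Ifitm3, an antiviral membrane protein, fell by 3.87, while 16 of the 35 interferon-stimulated genes rose. Il1r2, the decoy receptor for interleukin-1, was at 428, 372 and 534 CPM in the lamina propria and 5.74, 5.79 and 5.89 CPM in the node (log2 fold change -6.26, SE 0.24, adjusted p = 2.5e-12), beside the falls of Il1a and Il1b. Gp2, a receptor for bacterial fimbriae, was at 533 ± 212 CPM and 6.40 ± 1.12 CPM (log2 fold change -6.39, SE 0.64, adjusted p = 2.3e-07), and Cfp, properdin of the complement system, fell by 3.54. For each gene given with all its libraries here, every library of one tissue lay above every library of the other.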
